A study of Zea mays with 12 samples.

Results

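In maize endosperm, a small set of transcripts differed more between the reciprocal hybrids B73xMo17 and Mo17xB73 than between the inbred parents B73 and Mo17. Of 17621 probe sets (groups of short probes for 1 transcript), 39 made up this set. They were chosen by measured values, in these steps. Each array was scaled to a median signal of 160 and a geometric mean was taken per genotype. A probe set was kept when its larger inbred mean was 200 or more, when the inbreds differed by 1.5-fold or more, and when the 3 arrays of one inbred lay above the 3 of the other. These inbred conditions left 2627 probe sets. The difference between the hybrids was then divided by the difference between the inbreds, (B73xMo17 - Mo17xB73)/(B73 - Mo17), and the 39 members were those with a quotient, called the share here, above 1.3. The rule itself therefore selects 1.48% of the 2627, and the share, the levels of the genotypes and both differences are given below as a description.

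Endosperm was collected 13 days after pollination from field-grown plants of 4 genotypes, the inbreds B73 and Mo17 and their crosses B73xMo17 and Mo17xB73, with 3 arrays each. Each array held total RNA pooled from 6 ears, with 6 endosperms per ear by the growth protocol and 5 by the series design. Replicates 1, 2 and 3 come from separate crossing dates, and the genotypes of 1 date were pollinated within a short span. The cross names are read here with the mother first, as is usual for maize; the labels leave this open. Under the opposite convention the members would be the same, mother and father would change places, and the share expected from dosage, given below, would be negative. Fewer cells of a type and less RNA per cell cannot be told apart in such pools.

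Endosperm is the nutritive tissue of the kernel and arises from a second fertilisation, which gives it 2 maternal genome copies and 1 paternal copy. Reciprocal hybrids therefore hold the same alleles in opposite dosage. If the signal followed dosage alone, the hybrids would lie between the inbreds and the share would be 0.333. A transcript made from maternal alleles only would have a share of 1. A share above 1 means that at least 1 hybrid lies outside the range set by the inbreds, on the side of its mother. The reciprocal hybrids differ both in dosage and in the mother plant that feeds the kernel, and these cannot be told apart in this design.

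Over the 2627 probe sets that passed the inbred conditions, the median share was 0.391, with quartiles of 0.226 and 0.595, and 137 lay above 1. The members had a median share of 1.45, and 24 of the 39 lay between 1.3 and 1.5. Among the members 23 were higher in Mo17 and 16 higher in B73. Each member pointed the same way in the hybrids as in the inbreds, so the 23 were higher in Mo17xB73 and the 16 in B73xMo17. The members were mostly modest in size. Their inbred difference was 1.75-fold in the median and under 2-fold for 25, and their hybrid difference was 2.44-fold in the median. The larger inbred mean was under 400 for 19 of them, and the 4 brightest ranged from 2319 to 6597. The plot of hybrid against inbred differences shows them beyond the line of equality in both directions.

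**Figure D1:**
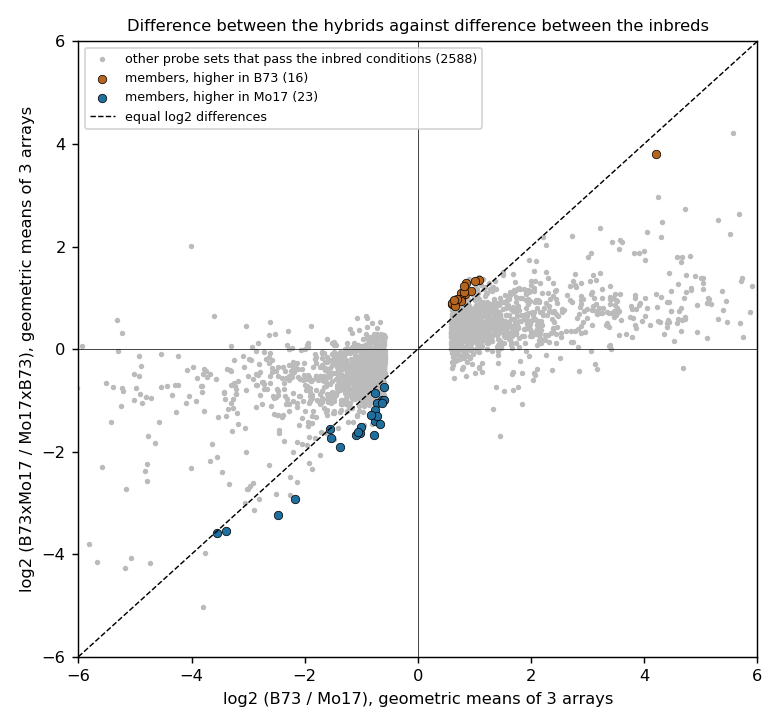
Each point is 1 probe set that passed the inbred conditions; the x axis is log2 of B73 over Mo17, and the y axis is log2 of B73xMo17 over Mo17xB73, both from geometric means of 3 arrays. The 39 members are coloured by the inbred that was higher (16 for B73, 23 for Mo17), the dashed line marks equal log2 differences, and 64 points lie outside the axes. The selection used linear differences, so 1 member, near log2 of 4 on both axes, lies under the line; its Mo17 mean is below the floor of 14.9 and its exact place is not read.

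The annotation table names a gene for 6 of the 39 members, which come from 5 genes: a glutathione transferase, an oxophytodienoate reductase, a calcium pump, an expansin and a MADS-box gene. All 6 of these probe sets were higher in Mo17 and Mo17xB73. The remaining 33 have no gene in that table and are described by their probe set names. Of the 2627 probe sets, 243 have 1 gene, so the annotation covers a minor part of the set throughout.

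The glutathione transferase gene gst31 (LOC541842), from a family that conjugates glutathione to toxic or oxidised compounds, entered with 2 probe sets. Zm.556.2.A1_a_at read 243, 235 and 252 on the B73 arrays of crossing dates 1, 2 and 3, and 655, 434 and 879 in Mo17. In the hybrids it read 178, 200.4 and 222 in B73xMo17, and 782, 462 and 1178 in Mo17xB73. All B73xMo17 arrays lay below all inbred arrays, and Mo17xB73 exceeded Mo17 on each date. The share was 1.43 ± 0.11 (SD over 3 crossing dates), with the hybrids 3.78-fold apart and the inbreds 2.59-fold. Zm.556.1.S1_a_at had the lowest share of all members, 1.31 ± 0.067 (SD over 3 dates). It read 252, 195 and 259 in B73, and 245, 257 and 252 in B73xMo17, which overlapped. Its values were 671, 431 and 1066 in Mo17 and 801, 542 and 1318 in Mo17xB73, again higher in the hybrid on each date. These probe sets share a gene and are not separate evidence.

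A pair of further gst31 probe sets fell outside the selection. Zm.556.1.S1_x_at had a share of 1.11, with means of 189.7 in B73, 721 in Mo17, 255 in B73xMo17 and 843 in Mo17xB73. Zm.556.2.A1_x_at failed the inbred conditions, with an inbred ratio of 1.299 and overlapping inbred arrays: it read 270.1, 249 and 309.8 in B73 and 214, 146 and 305 in Mo17. Its hybrids were nevertheless apart, at 172, 129.7 and 192 in B73xMo17 and 672, 412 and 930.3 in Mo17xB73. All 4 gst31 probe sets thus had every Mo17xB73 array above every B73xMo17 array, while they disagreed on the inbred difference. The ending x_at marks probes that can also bind other transcripts, so related transferases may contribute to 2 of the 4.

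The gene opr1 encodes an oxophytodienoate reductase, a flavin enzyme whose family includes the reductases of jasmonate synthesis. Zm.10676.1.S1_at read 98.6, 136 and 245 in B73, and 1184, 424 and 1127 in Mo17. It read 102, 93.8 and 169 in B73xMo17, and 1208, 713 and 1582 in Mo17xB73. Both pairs of genotypes were far apart on every date, and the hybrids were 9.44-fold apart against 5.57-fold for the inbreds. The hybrids left the inbred range at both ends, with Mo17xB73 at 1.34 times Mo17 and B73 at 1.26 times B73xMo17, yet their arrays overlapped with those of the inbreds at both ends. The share was 1.46 ± 0.56 (SD over 3 dates) and came to 1.02, 2.15 and 1.60 on dates 1, 2 and 3.

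The gene cap1 encodes a calcium-transporting ATPase, an ion pump that moves calcium out of the cytosol. Zm.509.1.S1_at read 242, 171 and 209.9 in B73, and 352, 266 and 317 in Mo17. It read 206, 138 and 209 in B73xMo17, and 399.6, 315 and 377 in Mo17xB73. The order B73xMo17, B73, Mo17, Mo17xB73 held on every date, although hybrid and neighbouring inbred overlapped between dates. With 1.75, 1.87 and 1.57 on the 3 dates, its share of 1.74 ± 0.15 (SD over 3 dates) was among the steadiest. The inbreds were 1.51-fold apart, close to the limit of the rule, and the hybrids 2.00-fold.

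The expansin gene expA4, from a family of proteins that loosen plant cell walls, was read by 3 probe sets that disagreed. The member Zm.13728.2.S1_a_at read 251, 315 and 175 in B73 and 382, 416 and 329 in Mo17. It read 258, 251 and 196 in B73xMo17 and 432, 617 and 426 in Mo17xB73, so that Mo17xB73 lay above all inbred arrays. Its share was 1.87 ± 1.3 (SD over 3 dates), since date 2 gave 3.63 and dates 1 and 3 gave 1.32 and 1.49. The second probe set, Zm.13728.2.S1_at, passed the inbred conditions with a share of 0.578: it was brighter in Mo17 (1422) than in Mo17xB73 (1008) and read 259.6 in B73 and 337 in B73xMo17. The remaining one, Zm.13728.1.S1_at, read 154 in B73 and 141 in Mo17, too close to pass, and 226 and 288 in the hybrids. The place of expA4 in the set therefore rests on 1 of 3 probe sets.

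The MADS-box gene LOC542043 (synonyms m6, M7, zmm6 and zmm7) belongs to a family of transcription factors best known for specifying floral organs. Zm.13833.1.A1_at read 163, 67.6 and 54.0 in B73 and 225, 315 and 214 in Mo17. It read 181, 88.9 and 81.3 in B73xMo17 and 269, 308 and 411 in Mo17xB73. B73xMo17 was above B73 on each date, so the share of 1.31 ± 0.59 (SD over 3 dates) came from the upper end alone. On date 2 the share was 0.886.

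**Figure D2:**
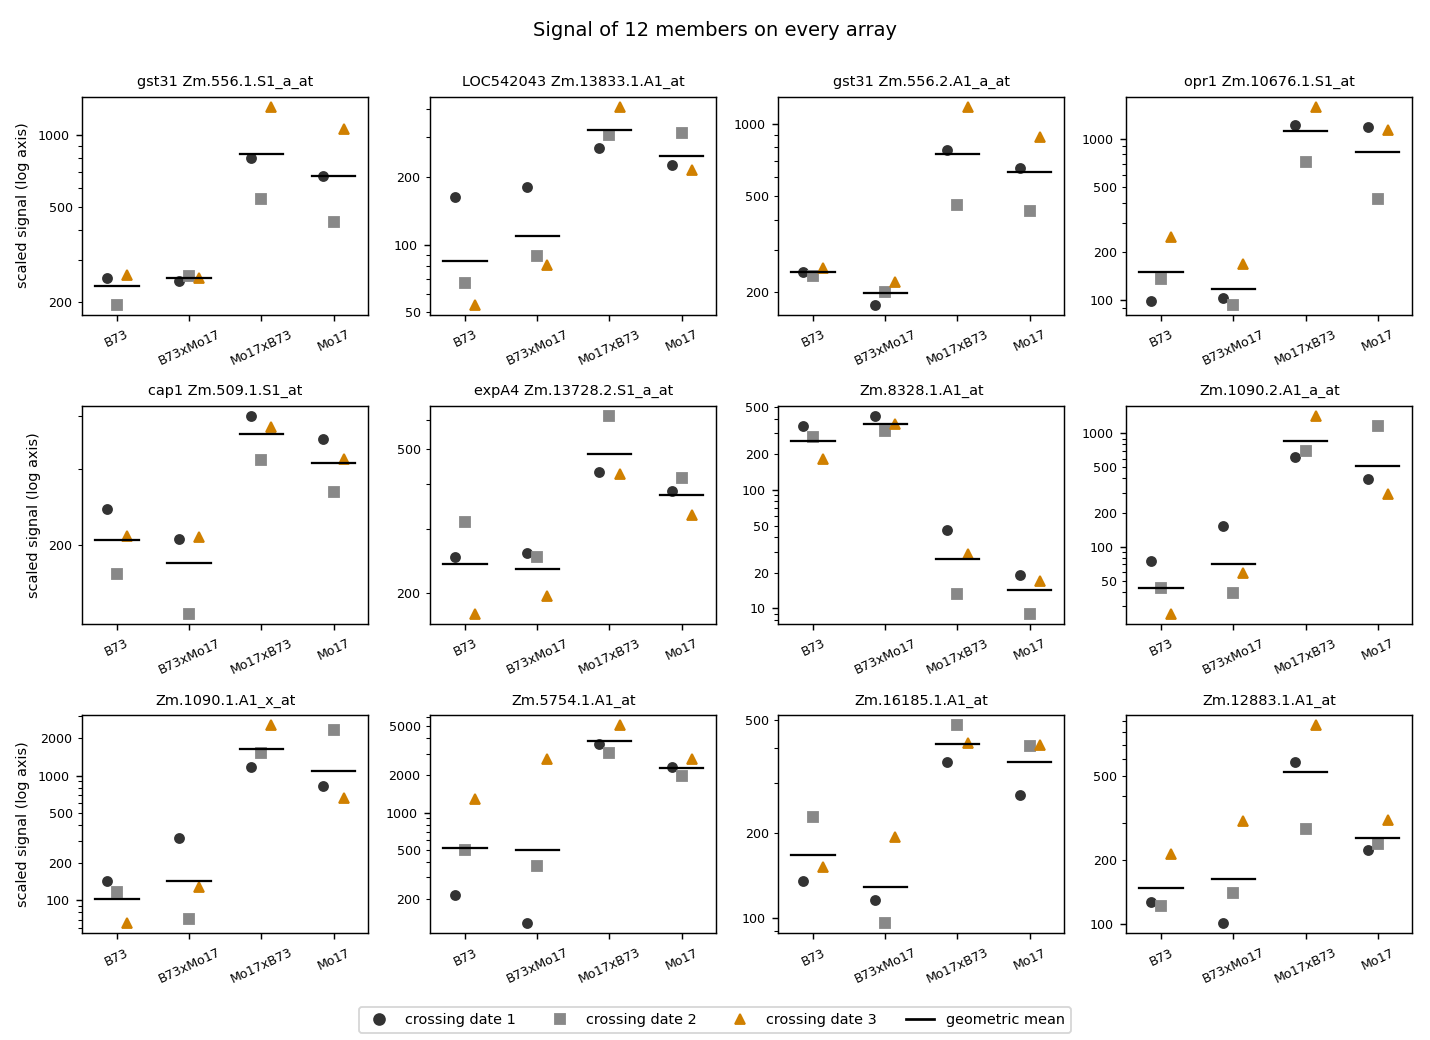
Scaled signal on a log axis for 12 members: the 6 probe sets with a gene and the 6 others with the largest log2 difference between the hybrids. Each symbol is 1 array (circles, squares and triangles for crossing dates 1, 2 and 3), bars are geometric means, and the genotypes are ordered so that each hybrid stands beside its mother. In opr1 the Mo17xB73 and Mo17 arrays lie between 424 and 1582, and the B73 and B73xMo17 arrays between 93.8 and 245.

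Among members without a gene name, Zm.8328.1.A1_at had the largest measured hybrid difference, 3.81 on the log2 scale in favour of B73xMo17. It read 349, 281 and 182 in B73 and 421, 314 and 361 in B73xMo17. In Mo17 it was near the dim end of the arrays at 18.9, 8.92 and 16.9, and in Mo17xB73 it read 45.4, 13.2 and 29.0. B73xMo17 exceeded B73 on each date, but Mo17xB73 also exceeded Mo17. The Mo17 mean of 14.2 and 1 Mo17xB73 array lay under the floor of 14.9 used in the fit, so no exact ratio is read at the low end. The share of 1.36 ± 0.51 (SD over 3 dates) reflects the upper end on the linear scale.

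The probe sets Zm.1090.1.A1_x_at and Zm.1090.2.A1_a_at share the number in their names, which stands for a cluster of expressed sequences, and they moved together. The first read 144, 117 and 65.2 in B73, 831, 2345 and 663 in Mo17, 316, 70.5 and 128 in B73xMo17, and 1164, 1521 and 2536 in Mo17xB73. The dates did not keep the order: Mo17 was above Mo17xB73 on date 2 and below it on dates 1 and 3. Its shares by date were 1.24, 0.651 and 4.03, and those of the second were 1.43, 0.585 and 5.15. The same cluster had 2 further probe sets that passed the inbred conditions, Zm.1090.3.A1_x_at and Zm.1090.4.S1_x_at, with shares of 1.23 and 1.12. For this cluster the excess over a share of 1 was smaller than the spread between dates.

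Zm.5754.1.A1_at was the opposite case, with levels that varied widely and a share that did not. It read 216, 495 and 1288 in B73, 127, 368 and 2728 in B73xMo17, 2339, 1969 and 2709.7 in Mo17, and 3617, 3052 and 5092 in Mo17xB73. All Mo17xB73 arrays lay above all inbred arrays, by 1.65-fold over Mo17 in the mean, whereas B73 and B73xMo17 overlapped fully. The shares by date were 1.64, 1.82 and 1.66. The date 3 array of B73xMo17 stood at 2728, just above all 3 Mo17 arrays.

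The highest shares belonged to Zm.12883.1.A1_at and Zm.3785.1.S1_at. Zm.12883.1.A1_at read 127, 121 and 213 in B73, 223, 239.6 and 311 in Mo17, 101, 140.3 and 305 in B73xMo17, and 577, 279.9 and 863 in Mo17xB73. Its share was 3.34 ± 2.4 (SD over 3 dates), with 1.18 on date 2, and it was the only member whose hybrid arrays overlapped. Zm.3785.1.S1_at read 308, 306 and 235 in B73, 427, 405 and 509 in Mo17, 217, 243 and 271 in B73xMo17, and 638, 611 and 762 in Mo17xB73. Its Mo17xB73 arrays all lay above all inbred arrays, at 1.501 times Mo17, and its share of 2.59 ± 1.1 (SD over 3 dates) never fell below 1.78.

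Of the other members named for a large hybrid difference, all but Zm.8563.1.A1_at ran the same way, toward Mo17xB73. Zm.3153.3.S1_a_at read 500.1, 623 and 619 in B73 and 1063, 1166 and 1306 in Mo17, against 383, 416 and 438 in B73xMo17 and 1121, 1158 and 1636 in Mo17xB73. Its B73xMo17 arrays all lay below all inbred arrays, and B73 was 1.40 times B73xMo17. Zm.5108.1.A1_at left the range only at the low end: B73xMo17 read 419, 667 and 431, B73 read 691, 942 and 1023, and Mo17xB73, with a mean of 1303, stayed under Mo17 at 1481. Its share was 0.542 on date 1 and 1.91 and 2.53 on the others. Zm.16185.1.A1_at, Zm.7576.1.A1_at and Zm.19338.1.S1_at had hybrids 3.21-fold, 3.07-fold and 2.85-fold apart, against 2.14-fold, 2.09-fold and 2.01-fold for the inbreds. Zm.8563.1.A1_at was higher in B73 and B73xMo17, with hybrids 2.55-fold apart, and had shares of 1.38, 1.06 and 3.74 by date.

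The hybrids left the inbred range at both ends for 22 members, at the upper end alone for 12 and at the lower end alone for 5, going by means. The upper excess was the larger one: in the median the higher hybrid exceeded the higher inbred by 39.9% of the inbred difference, and the lower hybrid lay under the lower inbred by 8.57%. Of the 23 members higher in Mo17, Mo17xB73 was above Mo17 for 20 and B73xMo17 below B73 for 16. Of the 16 higher in B73, B73xMo17 was above B73 for 14 and Mo17xB73 below Mo17 for 11. The summed hybrid means exceeded the summed inbred means for 29 of 39 members, against 30.1% of all probe sets that passed the inbred conditions. The rule works on linear differences, in which the brighter hybrid weighs most, so these positions are not independent of it.

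**Figure D3:**
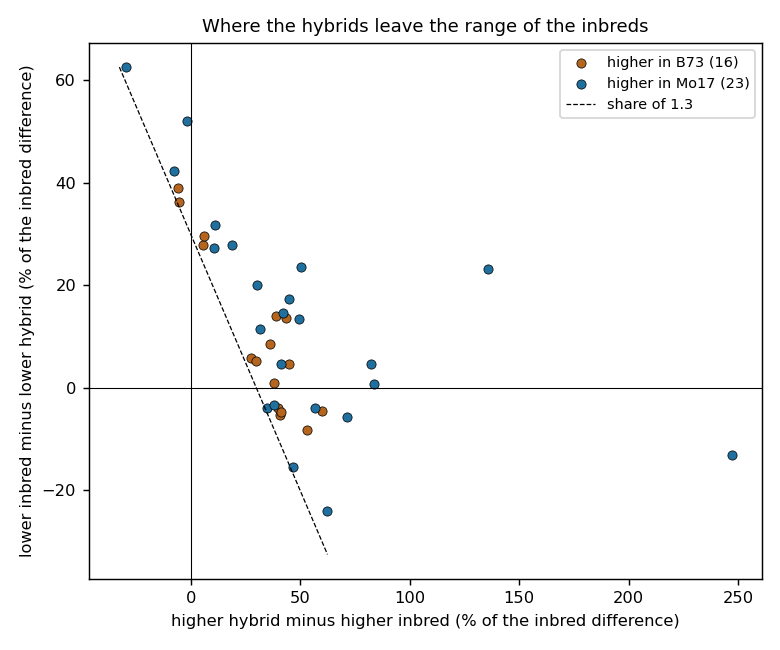
Each point is 1 member; the x axis gives by how much the higher hybrid exceeded the higher inbred, and the y axis by how much the lower hybrid lay under the lower inbred, both in percent of the inbred difference. The upper right holds the 22 members outside the inbred range at both ends, the lower right the 12 at the upper end alone and the upper left the 5 at the lower end alone; all points lie above the dashed line of a share of 1.3.

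Array by array the departures were less complete. The 3 arrays of one hybrid lay entirely above those of the other for 38 of 39 members, where 68.4% of all probe sets passing the inbred conditions did so. For 16 members at least 1 hybrid had its 3 arrays outside all 6 inbred arrays, where 3.05% of all passing did so. Both counts follow from the rule and nothing is read from them. B73xMo17 lay above all inbred arrays for 4 members, namely Zm.5892.1.A1_at, Zm.8900.2.A1_at, Zm.8993.2.S1_at and Zm.14994.1.A1_at, and below them for 4, among them gst31. Mo17xB73 lay above them for 5, among them expA4, and below them for 3. No member had both hybrids outside all inbred arrays at opposite ends.

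Zm.14994.1.A1_at illustrates the members higher in B73. It read 655, 673 and 659 in B73, 380.5, 323 and 428 in Mo17, 723, 739 and 913 in B73xMo17, and 360.1, 262 and 399.9 in Mo17xB73. B73xMo17 was above B73 on all dates and Mo17xB73 below Mo17 on all dates, and the share was 1.57 ± 0.51 (SD over 3 dates). The bright Zm.8993.2.S1_at had the same order, at 2553 in B73, 1638 in Mo17, 2912 in B73xMo17 and 1509.7 in Mo17xB73. A second probe set of its cluster, Zm.8993.1.A1_a_at, had nearly the same share of 1.504 with means of 2624, 1909, 2797 and 1721, but its inbreds differed by too little to pass. Another bright probe set of the cluster, Zm.8993.1.A1_at, showed little of either difference. Its means were 1090 in B73, 1106 in Mo17, 1018 in B73xMo17 and 933 in Mo17xB73.

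The shares varied between crossing dates. The SD of the share over the 3 dates was 0.469 in the median of the members and 0.176 over all 2627 probe sets, and the replicate SD within genotypes was 0.26 against 0.19 on the log2 scale. The share was above 1 on all 3 dates for 31 members and on 2 dates for the other 8, while 1.83% of the 2627 were above 1 on all dates. It was above 1.3 on all dates for 9 members: Zm.3785.1.S1_at, Zm.5754.1.A1_at, cap1, Zm.14994.1.A1_at, expA4, Zm.7853.1.A1_a_at, gst31 (Zm.556.2.A1_a_at), Zm.19338.1.S1_at and Zm.3153.3.S1_a_at. The lowest share of any member on any date was 0.542, so none fell to the 0.333 of dosage. These dates entered the selection, so the counts describe the members and do not test them.

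**Figure D4:**
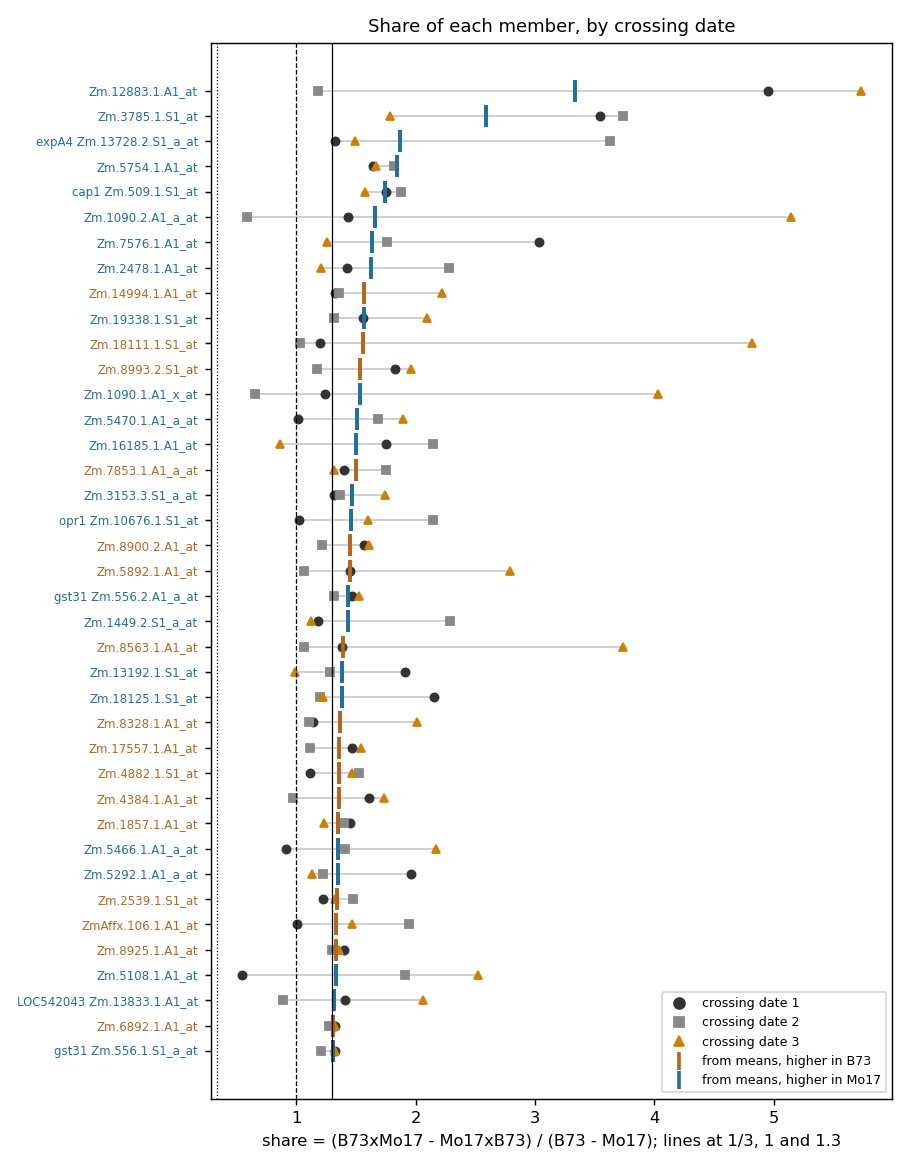
Share of each of the 39 members (rows, sorted by share) on crossing dates 1, 2 and 3 and from the means, with names coloured by the inbred that was higher; vertical lines mark 0.333, 1 and 1.3. The date symbols of 31 members all lie above 1, and the widest rows, such as Zm.12883.1.A1_at and both Zm.1090 probe sets, spread over more than 3 units.

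To read the share on arrays that had no part in the choice, the rule was applied to the 8 arrays of 2 dates and the share was taken from the 4 arrays of the third. On dates 2 and 3 the rule chose 66 probe sets, and 47 of them (71.2%) had a share above 1 on date 1, where 8.38% of all probe sets that passed the inbred conditions did. On dates 1 and 3 it chose 53, and 36 of them (67.9%) had a share above 1 on date 2, against 14.4%. On dates 1 and 2 it chose 43, and 34 of them (79.1%) had a share above 1 on date 3, against 10.7%. The median share fell from 1.49 to 1.31, from 1.51 to 1.20 and from 1.41 to 1.36 between the dates used for the choice and the one left out. By another criterion, the hybrids had to keep the direction of the choosing dates and differ by more than the inbreds did. It applied whichever way the inbreds differed, and the counts were 48 of 66, 36 of 53 and 35 of 43. For all probe sets that passed the inbred conditions, the direction was that of the inbreds, and 8.56%, 14.8% and 11.01% met it with a larger difference. Hybrids further apart than their parents on 2 dates were thus mostly so on the third as well, with a smaller excess.

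**Figure D5:**
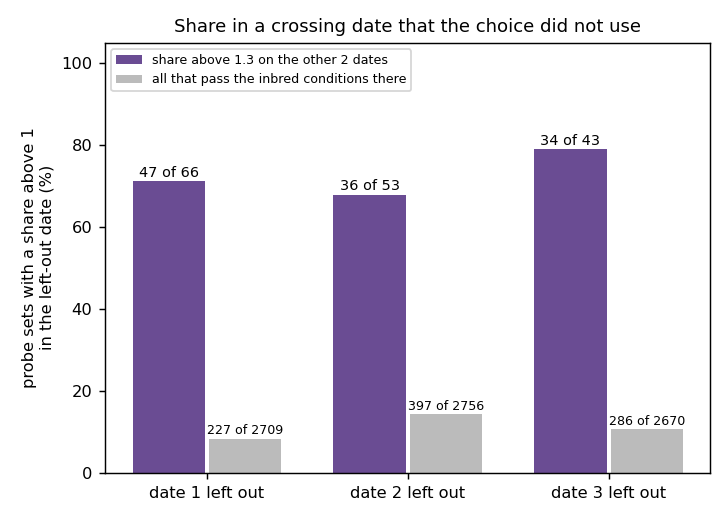
Bars give the percent of probe sets whose share was above 1 on the crossing date left out, for probe sets with a share above 1.3 on the other 2 dates (purple) and for all that passed the inbred conditions there (grey), with counts above the bars. The purple bars stand at 71.2%, 67.9% and 79.1%, and the grey bars at 8.38%, 14.4% and 10.7%.

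These choices named 104 probe sets in all, of which 13 were chosen in each of the 3 and all 13 were members; 4 members were chosen in none. The exact membership is therefore loose around the threshold. Just inside it lay gst31 (Zm.556.1.S1_a_at) at 1.31, Zm.6892.1.A1_at at 1.31 and LOC542043 at 1.31. Just outside lay Zm.7579.1.A1_at at 1.29, ZmAffx.1164.1.A1_at at 1.29 and ZmAffx.486.1.A1_at at 1.28. Of these, Zm.6892.1.A1_at had the smallest SD over dates of all members, 0.029, with shares of 1.32, 1.27 and 1.32 on dates 1, 2 and 3. It read 3266, 3411 and 3246 in B73, 2073, 2266 and 2166 in Mo17, 3178, 3213 and 3357 in B73xMo17, and 1599, 1753 and 1927 in Mo17xB73. Going by means, all its excess lay at the low end, although on date 3 B73xMo17 was also above B73.

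Crossing date is a contrast that the genotype means did not use, so it was tested. The condition that the inbred arrays lie apart does use single arrays, so the test is not fully independent of the rule. The background here is all tested probe sets, most of which did not meet that condition. In limma's F test of date in a model with genotype, 11 of 39 members (28.2%) passed after Benjamini-Hochberg adjustment over 10708 probe sets, where 16.6% of all tested probe sets did. Of the 11, 9 were higher in Mo17. Date 3 was the highest for 6 of them, date 2 for 3 and date 1 for 2, so they did not follow 1 common course. For opr1, date 2 was lower than date 1 by -0.48 and date 3 higher by 0.59 (log2, each ± 0.22 SE; adjusted p = 0.0193 in limma). For gst31 (Zm.556.1.S1_a_at) the differences were -0.38 and 0.37 (± 0.18 SE; adjusted p = 0.0358 in limma). The other gst31 member, Zm.556.2.A1_a_at, did not pass, with -0.31 and 0.35 (± 0.17 SE; adjusted p = 0.0510 in limma). For cap1 date 2 was lower by -0.46 (± 0.09 SE; adjusted p = 0.0110 in limma). Zm.5754.1.A1_at had the widest course, with date 3 above date 1 by 1.93 (± 0.49 SE; adjusted p = 0.0403 in limma). The count of 11 depended on single arrays, and the background moved with it. It was 3 without B73xMo17 replicate 3, where 9.02% of all tested probe sets passed, so that the members were then no longer above the background. It was 4 and 5 without Mo17xB73 replicates 2 and 3, with backgrounds of 8.77% and 8.31%. Without replicate 2 or 3 of Mo17 it was 6, with backgrounds of 13.2% and 10.2%.

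Between the reciprocal hybrids all 39 members passed limma's test, 16 as higher in B73xMo17 and 23 as higher in Mo17xB73. Of the 10708 probe sets tested, 16.6% passed as higher in B73xMo17 and 13.1% as higher in Mo17xB73. This balance depended on the scaling: 1777 were higher in B73xMo17 and 1405 in Mo17xB73 with scaled arrays, 393 and 2780 with the deposited values, whose median log2 difference was -0.23 against 0.04. The members' own split was 15 and 23 with the deposited values. The selection used this contrast and nothing is read from the count. The mean of both hybrids did not differ from that of both inbreds for any member by limma's adjusted test. By that adjusted test 3.90% of all tested probe sets were higher and 0.925% lower in the hybrids. At an unadjusted p under 0.05 there were 5 members, in both directions. The share of all probe sets at that cut-off was not counted, so nothing is read from the 5. With crossing date as a block, 3 of the 39 members passed, where 12.8% of all tested probe sets did, so the members were not above the background in either fit. The members' log2 differences between hybrids and inbreds ran from -0.50 to 0.71 with a median of 0.05, against a median of -0.06 over all tested probe sets.

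The clusters or genes of the members had 26 further probe sets, of which 13 reached 200 in an inbred. Only 6 passed the inbred conditions, and 3 of these had a share above 1: the pair from the Zm.1090 cluster and a gst31 probe set. The other 3 lay below 0.6. In the cluster of the member Zm.2478.1.A1_at, whose share was 1.62, Zm.2478.1.A1_a_at was brighter and had a share of 0.483, with 383 in B73, 2034 in Mo17, 526 in B73xMo17 and 1323 in Mo17xB73. Zm.5466.1.A1_at even opposed its cluster's member in direction. It read 604 in B73 and 31.9 in Mo17, with 399 and 273 in the hybrids, while the member Zm.5466.1.A1_a_at read 148, 230.1, 113 and 224 in the same order. Probes of 1 cluster can lie on different parts of a transcript, and a base difference between B73 and Mo17 within a probe would change its signal too, which was not tested. Names ending in a_at, given to probe sets that match several transcripts of 1 gene, made up 25.6% of the members and 7.84% of the 2627.

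The families of the named members did not join them as a whole. Of 15 tested glutathione transferase probe sets 5 were higher in Mo17xB73 and 1 in B73xMo17, 8 passed the inbred conditions, and those with a share above 1 were 3 of gst31. Of the 5, 4 were gst31 itself, so that outside gst31 only gst2 passed in that direction, 1 of 11. The relative gst2, with 122 in B73, 1017 in Mo17, 77.6 in B73xMo17 and 622 in Mo17xB73, had a share of 0.609. Of 7 tested probe sets for jasmonate and oxylipin enzymes 2 were higher in Mo17xB73, opr1 and the allene oxide synthase gene aos1, which makes a precursor for the pathway and had a share of 0.292. The reductase gene opr5 had means of 450.4 in B73 and 179.6 in Mo17 and a share of 0.303, so opr1 was the single member among 5 that passed the inbred conditions. Of 6 tested expansin probe sets 4 were higher in Mo17xB73 and none in B73xMo17; of the 4, 2 were expA4 and the other 2 came from csu658. Of these probe sets 2 of the 3 that passed the inbred conditions had a share above 1. These counts include the members and other probe sets of their genes, which were chosen on this contrast. With the deposited values they were 8 of 15 transferase, 3 of 7 jasmonate and 5 of 6 expansin probe sets, and 2780 of all 10721 tested were then higher in Mo17xB73.

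Markers of other kernel compartments also differed between the reciprocal hybrids, and their part in the members' differences was not tested. Of 13 tested probe sets for basal transfer layer and embryo surrounding region genes, which mark the base of the endosperm, 6 were higher in Mo17xB73 and none in B73xMo17, with a median log2 difference of -1.95. Their summed signal ranged from 2232 to 14918 in B73, 7330.1 to 28614 in Mo17, 2175 to 9939 in B73xMo17 and 9514 to 28131 in Mo17xB73. Taken across the crossing dates, the ranges of the hybrids overlapped narrowly. The basal layer gene BET1 itself had means of 1901 in B73, 3230.1 in Mo17, 1827 in B73xMo17 and 4019 in Mo17xB73, but its inbred arrays overlapped and its hybrids did not pass limma's test (log2 difference -1.14 ± 0.75 SE, adjusted p = 0.265). Nor did betl3, betl4, bap2, bap-1a, bap-3b and Incw from the same list, and the 6 that passed were probe sets of ESR1, ESR1c1, bap1-b and bap-3a. All list counts here come from the fit without crossing date as a block. That block raised the calls over all probe sets from 29.7% to 43.6%, and the lists were not counted with it. Genes that did not pass are therefore not read as unchanged. Zeins, the storage proteins, ran opposite to the basal transfer and embryo surrounding list, with 9 of 14 higher in B73xMo17 and none in Mo17xB73. The 9 were probe sets of dzs18, gz27, gz50, z1C1_12 and z1C2, with several each from dzs18 and gz27, so they are not separate genes. For embryo and late seed genes, 2 of 7 were higher in B73xMo17 and 3, all from the gene dehydrin3, in Mo17xB73. For aleurone genes the counts were 0 and 1 of 3, and for green tissue and pericarp genes 4 and 0 of 6, all 4 from 1 bright gene, C4ppdkZm1, a pyruvate phosphate dikinase that endosperm also expresses, and none passed with the deposited values (0 and 0). The zein list and the basal transfer and embryo surrounding list kept their direction under each scaling. With deposited and quantile-normalized values, 7 and 5 zein probe sets were higher in B73xMo17. In the basal transfer and embryo surrounding list, 6 probe sets were higher in Mo17xB73 with both. None of these lists contributed a member, but few of their probe sets met the inbred conditions. These were 12 zein, 2 basal transfer and embryo surrounding, 4 embryo and late seed, 1 aleurone, and 1 green tissue and pericarp probe sets. The rule selects 1.48% of such probe sets, and 33 of the 39 members have no gene to place on a list. Nothing is therefore read from the absence of members.

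Before scaling, the arrays of B73xMo17 replicates 1 and 2 were dimmer than the others, with median signals of 133 and 127 against 153 to 178, and their hybridization spike-in controls lay at -0.36 and -0.37 log2 from the mean over arrays. Without these 2 arrays the rule chose 80 probe sets, 31 of them among the 39. Without scaling it chose 42, of which 24 were among the 39. With quantile normalization it chose 56, which held 37 of the 39. Leaving out 1 array moved the count most for Mo17xB73 replicate 1, to 64. Precision is limited by having 3 arrays per genotype.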

How the data were processed

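Biotin-labelled total RNA from 12 endosperm pools was hybridised to 1-colour Affymetrix arrays. The deposited values are MAS5 signal intensity on a linear scale, 1 per probe set and array, per the submitters' processing notes; the sources used here give no software version, scaling target or detection call. Of 17734 probe sets 113 controls were left out. Each array was scaled to a median of 160, and the rule in the opening was applied. For limma 3.58.1 in R 4.3.3, signal was floored at the pooled 20th percentile (14.9), taken to log2, and tested where the mean over 12 arrays exceeded the pooled 40th percentile (72.2); all 39 members passed. The 4 genotype means were fitted without a block (8 residual degrees of freedom), with intensity trend and two-sided Benjamini-Hochberg adjusted p under 0.05; the date test added crossing date. The fit was tested on simulated data in which the noise of the arrays was independent. The simulation therefore does not check the effect of correlated arrays. Per the labels' protocols, replicate numbers mark crossing dates and so pair the arrays; deviations of same-numbered arrays correlated with means of 0.389, 0.375 and 0.424. Genes came from GEO's platform annotation (1452 probe sets with 1 gene, 1 with several), joined by identifier to RefSeq (Zm-B73-REFERENCE-NAM-5.0), which matched 1377, and 3 of the 5 member genes; cap1 and expA4 keep the annotation's names. Members and lists were chosen with earlier results of these data known. Named are all members with a gene, the 12 others with the largest hybrid difference, the 3 on each side of the share threshold and those above 1.3 on every date; Zm.8993.2.S1_at, Zm.5466.1.A1_a_at, Zm.2478.1.A1_at, Zm.5892.1.A1_at, Zm.8900.2.A1_at, gst2, csu658, aos1, opr5, C4ppdkZm1, BET1 and the other basal layer genes were added after their values were seen.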

Additional observations from a re-analysis of the deposited data

How the results depend on the processing

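The 39 members became 137 at a share above 1, 15 above 1.5 and 2 above 2. They became 20 with a larger inbred mean of at least 400, 14 with an inbred ratio of at least 2, and 9 with a share above 1.3 on every crossing date. Without both dim B73xMo17 arrays, an alternative chosen after seeing the data, 80 were chosen. Leaving out 1 array or 1 date gave 34 to 66, with 64 without Mo17xB73 replicate 1 and 66 without replicate 1 of every genotype. A similar count did not mean the same probe sets. The 39 chosen without Mo17 replicate 1 held 26 of the members, and the 35 without B73 replicate 3 held 22. The 64 without Mo17xB73 replicate 1 held 37. All members passed between the reciprocal hybrids with the replicate block (43.6% of all tested did), and 38 to 39 when 1 array was left out (19% to 29.9%). The rule used this contrast, so nothing is read from these counts.

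Between hybrids and inbreds no member passed limma's adjusted test (4.83% of all tested did), 3 passed with the replicate block (12.8%), 1 with the deposited values (4.08%), and 0 to 1 when 1 array was left out. Over all probe sets the block also raised the calls between the reciprocal hybrids from 29.7% to 43.6%. The date count of 11 (16.6% of all tested) was 7 with the deposited values (6.52%), 2 with no filter on dim probe sets (3.50%), 4 without both dim arrays (6.34%), and 3 to 15 when 1 array was left out. On the crossing date left out, 117 of 162 choices had a share above 1; the counts were 112 of 182 with the deposited values and 147 of 191 with quantile normalization, both added after seeing the data. Where the cause of such a move is not the smaller number of arrays or the stricter threshold itself, it was not tested. Dim signals limit the members least well measured, such as Zm.8328.1.A1_at, whose Mo17 mean of 14.2 lies under the floor of 14.9.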
